A study of Mus musculus with 20 samples.

Results

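The giant cytoskeletal linkers described here are 10 genes with very long coding regions: Plec, Dst, Macf1, Dync1h1, Sptan1, Sptbn1, Ank2, Ank3, Utrn and Dmd. They are 10 of the 25317 genes in the count table, and each symbol matched 1 Ensembl identifier. They were listed by name for their coding length and chosen by their ribosome pull-down (IP) against lysate (Input) values in both genotypes, so those values are given as a description, with no test. RNA came from the cortex of 3-month-old C57BL/6 mice. The groups are 3 animals with a heterozygous Foxp2 deletion and 5 wild types, each with an IP and an Input library. A further 4 heterozygous Input libraries, of 2 animals with no IP, have titles with the ending IX or IXX and were kept apart. In bacTRAP, ribosomes that carry a GFP tag are pulled down with anti-GFP serum, so IP holds RNA bound to tagged ribosomes and Input the lysate just before the pull-down. The mice are described as carrying the deletion in the cortex. Which driver restricts it, which cells carry the tag and the sex of the animals are not given in the sources used here.

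These proteins tie the cytoskeleton's fibres to each other or to membranes. Plakins (Plec, Dst, Macf1) bridge actin, microtubules and intermediate filaments. Spectrin tetramers of an alpha and a beta chain (Sptan1, Sptbn1) form a lattice with actin under the plasma membrane, and ankyrins (Ank2, Ank3) anchor channels and adhesion molecules to it, with the Ank3 product organising the axon initial segment. Dystrophin (Dmd) and its relative utrophin (Utrn) link actin to a membrane complex built on dystroglycan, and the dynein heavy chain (Dync1h1) is the motor subunit that carries cargo towards the minus ends of microtubules.

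The longest annotated coding sequences (GENCODE M21, on the mm10 assembly used for the counts) ranked from the third longest, Dst with 23151 bp, to place 202, Sptbn1 with 7089 bp, of the 12575 genes tested that have one. Macf1 had 22065 bp, Plec 14073, Dync1h1 13932, Ank2 11778, Dmd 11034, Utrn 10290, Ank3 8612 and Sptan1 7494. The label therefore holds for length, and Sptan1 and Sptbn1 were the shortest of the 10. The Ank3 length is not a whole number of codons, so its annotated coding sequence may be incomplete and its place too low. Counts are per gene and cannot separate isoforms, such as the short dystrophin product from an internal promoter. GC content of the longest annotated transcript ran from 41.5% in Dmd to 61.3% in Plec, which was at percentile 97.7 of these genes. All 10 passed the low-count filter in every comparison.

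Library totals ran from 2782934 to 5754169 counts in the 16 libraries compared. The 10 genes together took 0.114% ± 0.0136 of the counts in heterozygous IP, 0.138% ± 0.031 in wild-type IP, 0.0579% ± 0.00215 in heterozygous Input and 0.066% ± 0.00569 in wild-type Input (SD, n = 3, 5, 3 and 5). Foxp2 itself averaged 27.9 ± 3.52 CPM in heterozygous Input against 47.2 ± 10.9 in wild-type Input, and 46.6 ± 12.9 in heterozygous IP against 69.7 ± 21.2 in wild-type IP (CPM is the count relative to library size, scaled by TMM; SD, n = 3 and 5). The edgeR adjusted p was 0.501 in Input, where the groups did not overlap, and 0.981 in IP, where they did. No marker gene of neurons, glia or vessels was at 0 in all libraries of a group. Summed markers of oligodendrocytes were 614 to 1050 CPM in heterozygous IP against 2860 to 3880 in heterozygous Input, and 723 to 1030 in wild-type IP against 3040 to 4130 in wild-type Input. Over single markers, edgeR's quasi-likelihood test (Benjamini-Hochberg adjusted p below 0.05) called 4 of 5 of glutamatergic neurons higher in IP and 1 lower in each genotype, with median log2 differences of 0.40 in heterozygotes and 0.50 in wild types; the lower one, Camk2a, makes up most of their sum, which was 1470 to 1510 CPM in heterozygous IP against 1780 to 1970 in heterozygous Input, and 1470 to 1780 in wild-type IP against 1280 to 1890 in wild-type Input. Interneuron markers were called lower in 6 of 6 in each genotype (medians -1.52 and -1.50), pan-neuronal ones in 5 of 5 in heterozygotes and 4 of 5 in wild types (-0.44 and -0.43), and oligodendrocyte ones in 5 of 6 in each (-2.13 and -1.92). Over all genes 22.6% were called higher and 22.1% lower in heterozygotes, and 28.5% higher and 25.6% lower in wild types. The IP of the heterozygote het729 stood apart in mitochondrially encoded RNA, at 0.398% of counts against 0.0616% to 0.127% in the other 7 IP libraries.

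Promoter windows from RefSeq (GRCm38.p6, 250 bases before to 50 after a start) were at hand for 8 of the 10 genes, 14 windows in all; Plec and Ank3 had none. Since Foxp2 is the deleted factor, the windows were searched on both strands for CAAATT, a core known from FOXP2 binding, and for TATTTAT, a site known for FOXP factors. CAAATT occurred in 2 of the 14 windows (14.3%) and in 11% of all 32851 windows, and TATTTAT in 1 of the 14 (7.14%) and in 5.6% of all. The 3 windows with a match are shown, capitals marking the matched letters, which do not overlap. A match is a run of letters, not evidence of binding.
Sptbn1, chr11:30219723-30220022, minus strand, CAAATT on the opposite strand, 246 bases before the start: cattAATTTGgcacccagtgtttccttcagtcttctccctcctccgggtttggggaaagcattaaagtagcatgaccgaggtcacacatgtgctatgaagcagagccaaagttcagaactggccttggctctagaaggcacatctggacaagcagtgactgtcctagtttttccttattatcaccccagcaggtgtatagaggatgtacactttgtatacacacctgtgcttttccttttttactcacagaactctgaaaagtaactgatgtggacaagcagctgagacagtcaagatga
Dync1h1, chr12:110601145-110601444, plus strand, TATTTAT 206 bases before the start: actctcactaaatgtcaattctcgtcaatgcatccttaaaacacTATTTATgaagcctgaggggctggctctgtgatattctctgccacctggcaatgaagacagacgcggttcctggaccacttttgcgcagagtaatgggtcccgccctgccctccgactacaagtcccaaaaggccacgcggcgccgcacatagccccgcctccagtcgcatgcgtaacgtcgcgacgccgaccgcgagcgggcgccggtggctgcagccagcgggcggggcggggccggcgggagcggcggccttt
Dmd, chrX:82948620-82948919, plus strand, CAAATT on the opposite strand, 37 bases before the start: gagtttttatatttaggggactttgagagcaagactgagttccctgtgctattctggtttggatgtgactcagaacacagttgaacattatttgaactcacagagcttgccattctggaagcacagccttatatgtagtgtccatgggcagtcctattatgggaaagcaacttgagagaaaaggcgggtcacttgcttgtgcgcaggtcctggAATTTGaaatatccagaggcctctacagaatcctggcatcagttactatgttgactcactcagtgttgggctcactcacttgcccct

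Ribosome-bound RNA held more of most of these transcripts than the lysate did. In 7 of the 10 genes (Plec, Dst, Dync1h1, Sptan1, Ank2, Ank3 and Dmd) IP was above Input in all 8 animals, while Utrn was below in 7 of them. Of all 14797 genes tested, 35% had IP above Input in every heterozygote and 26.9% in every wild type. The share of all genes whose IP and Input libraries did not overlap was not counted. Where fractions are said below not to overlap, this describes the gene and cannot be called a trait of the 10. The median log2 difference over the 10 genes was 0.52 in heterozygotes and 0.57 in wild types, against 0.04 and 0.03 over all genes. The spread among the 10 was wide, from 2.74 for Plec to -0.40 for Utrn in heterozygotes. In bulk RNA like this, fewer cells of a type and less RNA per cell cannot be told apart.

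**Figure D1:**
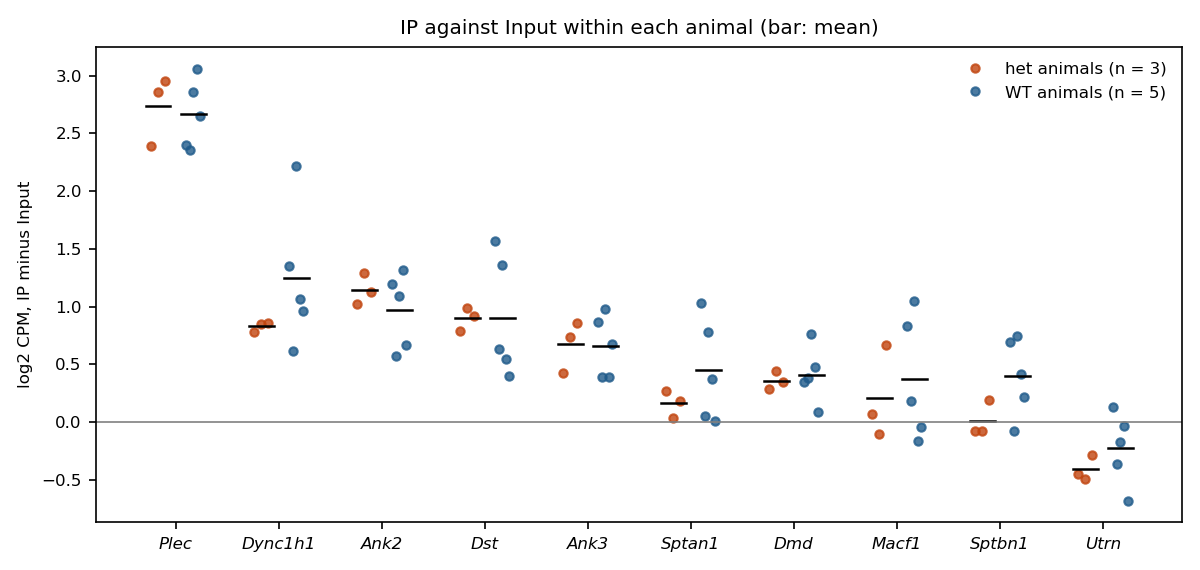
Difference in log2 CPM between the IP and the Input library of the same animal (y axis), for each gene, with heterozygotes left of wild types; each point is 1 animal and each bar a group mean. Plec is at 2.36 or more in every animal, and Utrn below 0 in every animal but wt734.

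Among the plakins, plectin (Plec; ENSMUSG00000022565, chromosome 15, 76170974 to 76232574), which binds intermediate filaments, stood far above Dst and Macf1 in IP against Input. The heterozygotes het729, het786 and hetBT13 held 109, 159 and 198 CPM of Plec in IP, against 20.7, 21.8 and 25.4 in their Input. The wild types wt734, wt736, wt785, wtBT13 and wtBT14 held 156, 128, 173, 163 and 125 CPM in IP, against 29.5, 24.8, 23.7, 19.3 and 19.7 in Input. No IP library came near an Input library, and the lowest IP value was over 3 times the highest Input value. The fitted log2 difference was 2.74 (SE 0.14; 6.67-fold) in heterozygotes and 2.67 (SE 0.11; 6.38-fold) in wild types, above 99.9% of all genes tested in both. Parp10, which overlaps Plec on the same strand, held 150 counts over the 16 libraries against 7274; reads from overlapping genes cannot be told apart here, nor can strands, which the library method does not mark.

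Dystonin (Dst; ENSMUSG00000026131, chromosome 1, 33908225 to 34308661), a linker of actin and microtubules in neurons, was at 80.7, 75.1 and 96.4 CPM in heterozygous IP (animals in the same order) against 46.6, 37.7 and 50.8 in their Input. Wild types held 134, 84.1, 126, 65.6 and 54.8 CPM in IP (same order) against 45.1, 54.1, 49, 44.7 and 41.4 in Input. The fractions did not overlap within either genotype, and the wild-type ratios ran from 1.33-fold to 2.98-fold. The log2 difference was 0.90 (SE 0.18) in heterozygotes and 0.94 (SE 0.14) in wild types.

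Macf1 (ENSMUSG00000028649, chromosome 4, 123349633 to 123684360), the spectraplakin closest to Dst in architecture, showed no such separation. Its levels were 27.4, 25.2 and 40 CPM in heterozygous IP against 26.2, 27 and 25 in their Input, and 56.3, 40.3, 57.4, 23.9 and 27.8 in wild-type IP against 31.6, 35.5, 27.7, 26.8 and 28.6 in Input. IP exceeded Input in 2 of 3 heterozygotes and in 3 of 5 wild types, all 3 with number-only names, and the log2 difference was 0.21 (SE 0.21) and 0.41 (SE 0.16). The heterozygous value was -0.02 without hetBT13 and 0.36 without het786, so its direction rested on 1 animal. Without wt785 the wild-type value was 0.24, and without wt734 it was 0.28.

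The dynein heavy chain gene Dync1h1 (ENSMUSG00000018707, chromosome 12, 110601452 to 110666945) had even levels in heterozygotes and uneven ones in wild-type IP. Heterozygous IP held 78.2, 85.4 and 73.9 CPM against 45.6, 47.2 and 40.7 in Input. Wild-type IP held 150, 87.3, 206, 90.2 and 99 CPM against 58.6, 56.8, 44.1, 42.8 and 50.9. Each IP library lay above every Input library of its genotype, with ratios of 1.72-fold to 1.81-fold in heterozygotes and 1.54-fold to 4.68-fold in wild types. The log2 difference was 0.83 (SE 0.23) in heterozygotes and 1.26 (SE 0.18) in wild types, and 1.01 in wild types without wt785, the animal with the highest ratio.

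The spectrin chains were close to level between fractions in heterozygotes. Alpha-II spectrin (Sptan1; ENSMUSG00000057738, chromosome 2, 29965560 to 30031451) was at 192, 189 and 202 CPM in heterozygous IP against 159, 184 and 178 in Input, and at 342, 195, 359, 209 and 178 in wild-type IP against 167, 189, 209, 162 and 177 in Input. Its log2 difference was 0.17 (SE 0.16) in heterozygotes and 0.46 (SE 0.12) in wild types, where the ratio was 2.05-fold in wt734, 1.72-fold in wt785 and 1.0-fold in wtBT14. Its partner beta-II spectrin (Sptbn1; ENSMUSG00000020315, chromosome 11, 30099395 to 30268175) was at 92, 74.4 and 105 CPM in heterozygous IP against 97.2, 78.4 and 92.3 in Input, and at 172, 99.4, 163, 119 and 99.5 in wild-type IP against 107, 105, 96.6, 88.6 and 85.3 in Input. The log2 difference of Sptbn1 was 0.01 (SE 0.13) in heterozygotes and 0.41 (SE 0.10) in wild types. The fractions overlapped in both genotypes for Sptbn1, and in wild types for Sptan1. Per library, Sptbn1 minus Sptan1 on the log2 scale averaged -1.11 ± 0.21 in heterozygous IP, -0.95 ± 0.13 in wild-type IP, -0.96 ± 0.26 in heterozygous Input and -0.90 ± 0.19 in wild-type Input (SD, n = 3, 5, 3 and 5). Within each genotype, the balance of the chains, not corrected for length, thus differed between IP and Input by less than the SD. Gm8098 overlaps Sptbn1 on the opposite strand with 228 counts against 7624.

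Both neuronal ankyrins were higher in IP in every animal. Ankyrin-B (Ank2; ENSMUSG00000032826, chromosome 3, 126921612 to 127499350) was at 212, 244 and 243 CPM in heterozygous IP against 104, 99.2 and 111 in Input, and at 318, 207, 287, 228 and 200 in wild-type IP against 139, 139, 134, 91.1 and 126 in Input. Its log2 difference was 1.15 (SE 0.13) in heterozygotes and 0.98 (SE 0.10) in wild types, with no overlap of the fractions. Ankyrin-G (Ank3; ENSMUSG00000069601, chromosome 10, 69398773 to 70027438) was at 97.9, 99.6 and 126 CPM in heterozygous IP against 72.6, 59.5 and 69.3 in Input, and at 155, 112, 144, 107 and 124 in wild-type IP against 84.9, 85.9, 73, 81.6 and 77.6 in Input. Its log2 difference was 0.67 in both (SE 0.13 in heterozygotes, 0.09 in wild types), again without overlap. Ank3 minus Ank2 on the log2 scale averaged -1.12 ± 0.17 in heterozygous IP against -0.64 ± 0.11 in their Input, and -0.94 ± 0.16 in wild-type IP against -0.63 ± 0.27 in Input (SD, n = 3, 3, 5 and 5), so Ank2 leaned further towards IP than Ank3.

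Dystrophin and utrophin had estimates of opposite sign, though the libraries of Utrn overlapped between fractions and wt734 had more Utrn in IP than in Input. Dmd (ENSMUSG00000045103, chromosome X, 82948870 to 85206141) was at 33.9, 47.7 and 37.6 CPM in heterozygous IP against 27.8, 35.1 and 29.4 in Input, and at 44.3, 49, 55.7, 40.5 and 37.9 in wild-type IP against 34.6, 37.6, 32.9, 29.1 and 35.6 in Input. The fractions of Dmd overlapped in heterozygotes, and in wild types the lowest IP library (37.9) was just above the highest Input library (37.6). The log2 difference of Dmd was 0.36 (SE 0.15) in heterozygotes and 0.42 (SE 0.11) in wild types. Utrn (ENSMUSG00000019820, chromosome 10, 12382188 to 12869365) was at 25.1, 19 and 31.5 CPM in heterozygous IP against 34.3, 26.7 and 38.3 in Input, and at 29.1, 26.4, 28.6, 29.5 and 21.3 in wild-type IP against 26.5, 33.9, 32.3, 30.2 and 34.4 in Input. The log2 difference of Utrn was -0.40 (SE 0.16) in heterozygotes and -0.21 (SE 0.13) in wild types, with overlap in both. Of 7 astrocyte markers, edgeR called 6 lower and 1 higher in IP in each genotype (medians -0.92 in heterozygotes and -1.02 in wild types, where 22.1% and 25.6% of all genes were called lower), and markers of interneurons, oligodendrocytes and neurons in general were also mostly lower, so this lean was not particular to astrocytes. The part of these cells in the Utrn value was not tested. Gm14769, a processed pseudogene inside Dmd on the same strand, held 143 counts against 2795.

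**Figure D2:**
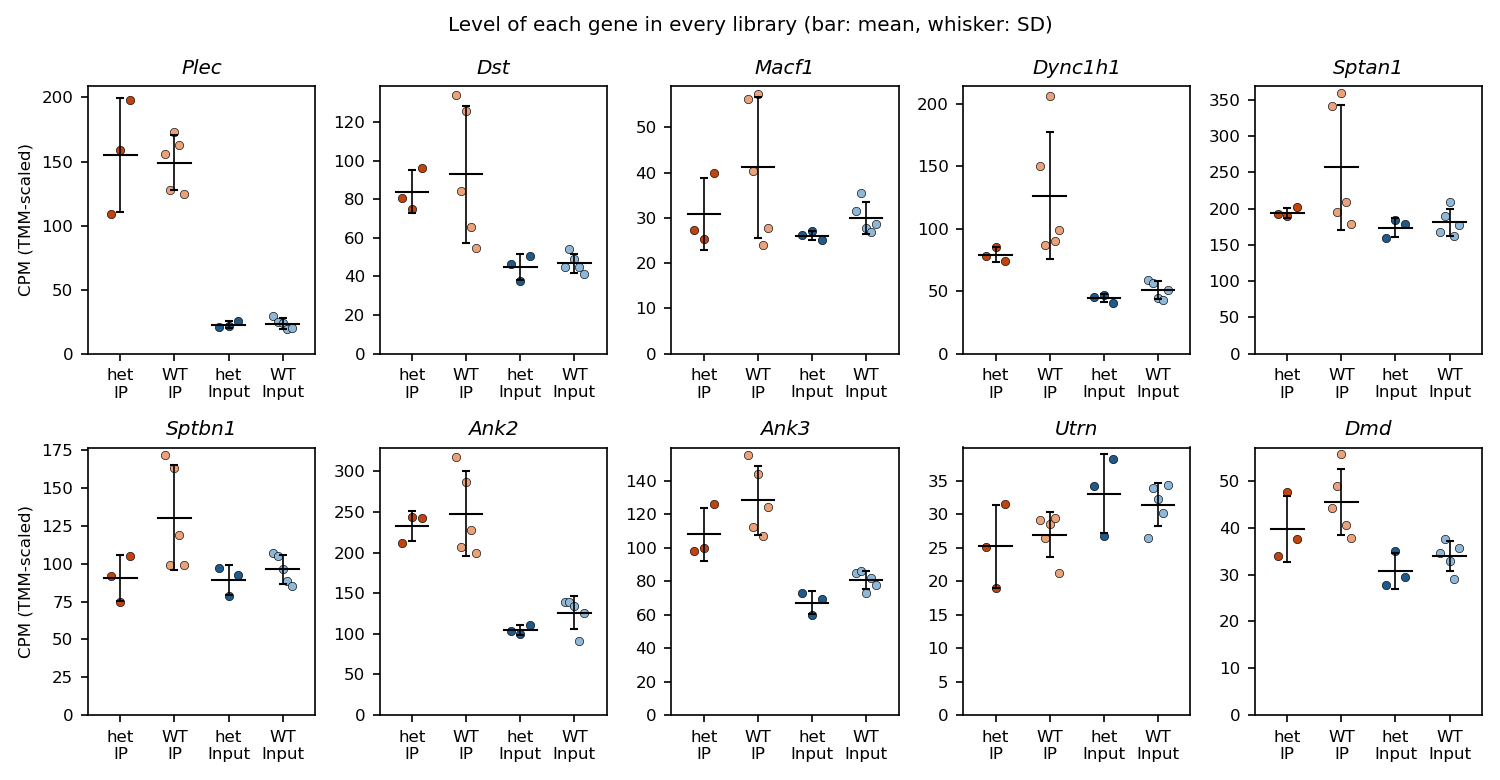
CPM (y axis, from 0) of the 10 genes in every library, grouped as heterozygous IP, wild-type IP, heterozygous Input and wild-type Input; points are libraries, bars means and whiskers SD. Plec holds 109 to 198 CPM in IP against 19.3 to 29.5 in Input, and the wild-type IP libraries of Dync1h1 and Sptan1 split into 2 high and 3 lower ones.

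Levels were set side by side per kb of each gene's longest annotated transcript, a scale on which a gene made mostly as shorter isoforms appears too low. A gene whose annotated transcript is incomplete, as may hold for Ank3, can appear too high on it. Sptan1 led in every group, with 24.2 ± 0.849 CPM per kb in heterozygous IP, 32 ± 10.8 in wild-type IP, 21.7 ± 1.63 in heterozygous Input and 22.5 ± 2.35 in wild-type Input (SD, n = 3, 5, 3 and 5), and Macf1 was lowest, at 1.31 ± 0.34, 1.75 ± 0.663, 1.11 ± 0.0428 and 1.28 ± 0.151. In wild-type Input the order below Sptan1 was Sptbn1 (10.6), Ank2 (8.8), Ank3 (8.09), Dync1h1 (3.53), Utrn (2.54), Dmd (2.28), Dst (2.01), Plec (1.51) and Macf1. Libraries of neighbours in that order were apart only between Sptan1 and Sptbn1, between Ank3 and Dync1h1, and between Dync1h1 and Utrn. In wild-type IP, Plec stood at place 5 with 9.64 ± 1.39 CPM per kb, between Ank3 (12.9 ± 2.07) and Dync1h1 (8.82 ± 3.57), against place 9 in Input, though its libraries overlapped those of both neighbours.

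Other long genes also leaned towards IP. In classes of 2 kb, the median log2 difference of non-members grew with coding length up to 10 kb in heterozygotes and wild types. It was 0.02 in heterozygotes and -0.01 in wild types below 2 kb (8745 genes), and 0.27 and 0.28 from 2 to 4 kb (2946 genes). From 4 to 6 kb it was 0.52 and 0.54 (561 genes), and from 6 to 8 kb 0.67 and 0.63 (188 genes). From 8 to 10 kb it was 0.70 in both (67 genes), and above 10 kb 0.65 and 0.59 (58 genes). In classes of 1000 bp the medians rose to 0.67 and 0.63 at 6000 to 6999 bp, with no steady growth after that. They were 0.63 and 0.59 from 7000 bp, 0.70 and 0.76 from 8000 bp, and 0.76 and 0.61 from 9000 to 9999 bp. Among the 192 other genes at least as long as Sptbn1 the medians were 0.66 and 0.65, against 0.52 and 0.57 in the 10 cytoskeletal genes, and 164 (85.4%) were above 0 in wild types. The median of the 10 thus lay near that of long genes in general, but single genes differed. Plec, Dst, Dync1h1 and Ank2 were above the long-gene medians in both genotypes, and Ank3 was close to them. Macf1, Sptan1, Sptbn1, Dmd and Utrn were below in both, with Sptbn1 at 0.01 in heterozygotes and 0.41 in wild types. GC content hardly moved over the 2 kb classes, with medians from 49.1% to 50.7%. The level of the non-members did differ between classes. Its median was 32.4 CPM below 2 kb, 20.8 to 27.6 in the classes from 2 to 10 kb, and 15.7 above 10 kb. The part of level in the length pattern was not tested. Genes in one class share the same libraries and are not replicates.

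**Figure D3:**
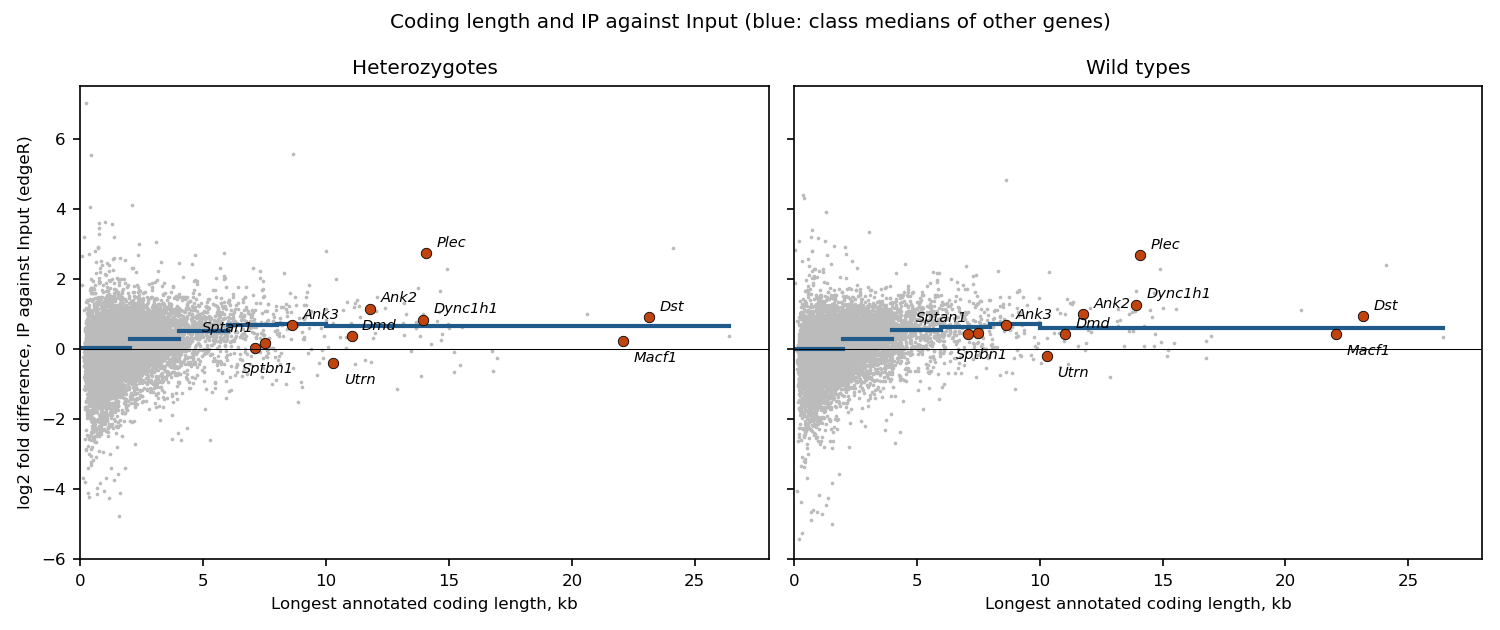
Log2 fold difference between IP and Input (y axis) against the longest annotated coding length in kb (x axis) for 12575 genes, in heterozygotes and wild types; the 10 named genes are red and blue lines are medians of the other genes in each length class. The class medians climb to 0.70 in both genotypes at 8 to 10 kb and are 0.65 in heterozygotes and 0.59 in wild types above that, and Plec lies well above them.

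Genes near both ends of those 192, with at least 5 CPM, show the range. Ryr2 (an intracellular calcium release channel) had log2 differences of 2.27 (SE 0.18) in heterozygotes and 2.28 (SE 0.13) in wild types, and Tenm2 (a teneurin adhesion protein) 2.16 (SE 0.19) and 2.22 (SE 0.14). Trank1 had -1.08 (SE 0.24) and -1.14 (SE 0.19), Map1b, a microtubule-associated protein of axons, -0.80 (SE 0.17) and -0.79 (SE 0.14), and the polycystin gene Pkd1 -1.15 (SE 0.23) and -0.79 (SE 0.17). Plec, at 2.74 in heterozygotes and 2.67 in wild types, lay above both Ryr2 and Tenm2. The genes nearest to the mean profile of the 10, by root mean square distance of centred log2 CPM over the 16 libraries among 12179 candidates, were Huwe1 and Mycbp2 (0.144 each), Dnm3 (0.146), Cc2d1a (0.147) and Arhgef17 (0.151). Of the 10 themselves, Ank3 was nearest to their mean (0.133) and Plec farthest (0.998).

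Relatives and partners were counted in lists written from general knowledge. Over all genes edgeR's quasi-likelihood test called 22.6% higher and 22.1% lower in IP in heterozygotes, and 28.5% higher and 25.6% lower in wild types (Benjamini-Hochberg adjusted p below 0.05). Outside the 10, the 4 other spectrin genes tested held 3 higher and 0 lower in both genotypes. Among them Sptbn5 had 2.29 in heterozygotes and 1.26 in wild types. Sptbn4, the beta chain of axon initial segments and nodes, had 0.31 in both and did not pass. The plakin gene Dsp (desmoplakin, of cell junctions) was called higher in both genotypes at very low levels: 1.39 ± 0.851 CPM in heterozygous IP against 0 in every heterozygous Input library, and 2.54 ± 3.46 CPM in wild-type IP against 0.0533 ± 0.119 in wild-type Input (SD, n = 3 and 5). No fold is given for it, since it would depend on the prior count. The plakin gene Evpl had 0.67 and 0.73 at a mean of 4.21 CPM and was called in wild types, and Ank1 did not pass. Dsp, Evpl and Ank1, and further on Scn2a, Nfasc and the Mapre genes, were named after their values were seen.

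Among the 18 membrane partners of spectrin and ankyrin, 8 were called higher and 4 lower in heterozygotes and 9 higher and 5 lower in wild types. The cell adhesion gene L1cam was highest in wild types, with log2 differences of 0.92 in heterozygotes and 1.06 in wild types, and Epb41l3, which encodes a 4.1-type adaptor, lowest, with -1.22 and -1.18. The sodium channel gene Scn2a had 0.52 and 0.49, and Nfasc, the neurofascin of initial segments, 0.80 and 0.73, all called in both genotypes. In the dystrophin complex, 3 of 12 non-members were called higher and 2 lower in heterozygotes and 4 higher and 3 lower in wild types; Drp2, a dystrophin relative, had 0.88 and 0.80 and Sntg2, a syntrophin, -0.76 and -0.88.

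The dynein partners did not follow the heavy chain. Of 22 other dynein, dynactin and adaptor genes, 3 were called higher and 9 lower in heterozygotes and 7 higher and 11 lower in wild types, with medians of -0.16 and -0.19 against 0.83 and 1.26 for Dync1h1. Dctn4, a dynactin subunit, was highest in wild types (0.62 and 0.65) and Nde1, a dynein regulator, lowest (-1.79 and -2.03). Among 10 microtubule end proteins, 3 were called higher and 4 lower in each genotype: Camsap1, which binds minus ends, had 1.08 and 1.03, Clip2 -1.41 and -0.84, and the end-binding genes Mapre1, Mapre2 and Mapre3 lay between -0.84 and -0.61.

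Heterozygotes were then compared with wild types within each fraction, a contrast that did not choose the genes. None of the 10 passed, in IP or in Input, with edgeR's quasi-likelihood test adjusted over all genes (adjusted p from 0.981 to 0.994 in IP and from 0.683 to 0.956 in Input). Over all genes 0% were called in IP (0 of 14755), where DESeq2 made 3 calls and limma-voom 0, and 0% in Input (0 of 13870), where both made 0. An unadjusted edgeR p below 0.05 was reached by 604 genes (4.09%) in IP and 979 (7.06%) in Input, and by 2 and 1 of the 10. The log2 estimates were below 0 for 9 of the 10 genes in each fraction, against 49.3% of all genes in IP and 48.7% in Input. Their medians were -0.23 in IP and -0.12 in Input, against 0.00 and 0.01 over all genes. Long genes in general had lower estimates too: of the 192 others at least as long as Sptbn1, 140 (72.9%) were below 0 in IP, with a median of -0.13, and of the 173 tested in Input 112 (64.7%), with a median of -0.09. The libraries and animals are shared by all these genes, so the counts are not independent.

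Dync1h1 was the only gene of the 10 whose heterozygous IP libraries (73.9 to 85.4 CPM) all lay below the wild-type ones (87.3 to 206), as for 1.7% of all genes. It averaged 79.2 ± 5.81 CPM against 127 ± 51.4 (SD, n = 3 and 5), 62.6% of wild type. The log2 difference was -0.68 (SE 0.27, edgeR unadjusted p = 0.0271, adjusted p = 0.981). The exact two-sided permutation p was 0.0357, the smallest the design allows, and it follows from the groups not overlapping. Without wt785 the log2 difference was -0.44. In Input the same gene was at 44.5 ± 3.37 against 50.6 ± 7.18 CPM (log2 -0.17, SE 0.13), and the groups overlapped.

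The smallest unadjusted p of the 10 in IP belonged to Sptbn1, at 90.5 ± 15.4 CPM against 131 ± 34.9 (SD, n = 3 and 5; log2 -0.53, SE 0.19, edgeR unadjusted p = 0.0134, adjusted p = 0.981; exact permutation p = 0.107), and its groups overlapped. Sptan1 and Macf1 had estimates of similar size, -0.41 (SE 0.22) and -0.42 (SE 0.27). Plec was at 156 ± 44.7 CPM against 149 ± 21.4 (log2 0.06, SE 0.16), a difference smaller than the spread, and Dst, Ank2 and Utrn had -0.15, -0.10 and -0.10. In 7 of the 10 genes (Ank2, Ank3, Dst, Dync1h1, Macf1, Sptan1 and Sptbn1) the highest IP libraries were wt734 and wt785, both with number-only names. The share of all genes with this same pair was not counted, so it cannot be called a trait of the 10.

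In Input, ankyrins had the lowest estimates. Ank3 was at 67.2 ± 6.79 CPM in heterozygotes against 80.6 ± 5.33 in wild types (SD, n = 3 and 5; log2 -0.25, SE 0.11, edgeR unadjusted p = 0.0298, adjusted p = 0.683; exact permutation p = 0.0357), and every heterozygous library (59.5 to 72.6) lay below every wild-type one (73 to 85.9), as for 2.9% of all genes. Ank2 was at 105 ± 6.06 against 126 ± 20.2 CPM (log2 -0.26, SE 0.12, edgeR adjusted p = 0.698), with overlap through wtBT13 at 91.1 CPM. The other 8 genes had Input estimates between -0.20 (Macf1) and 0.08 (Utrn).

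The IX and IXX libraries come from another 2 heterozygotes, het730 and hetBT14, with 2 libraries each. Ank3 averaged 68.1 CPM in het730 and 63.9 in hetBT14, below the 73 to 85.9 CPM of wild-type Input. Sptan1 averaged 150 and 160 CPM, below its lowest wild-type Input (162). Plec averaged 19.2 and 19.1 CPM, just below its lowest wild-type Input (19.3), but its single libraries ran from 15.8 to 22.5. Dst was below its wild-type range only in het730 (36.7 CPM) and Macf1 only in hetBT14 (24.8 CPM). Ank2 averaged 121 and 117 CPM, inside the wild-type range. With these animals included, each as the sum of its libraries, none of the 10 genes passed.

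**Figure D4:**
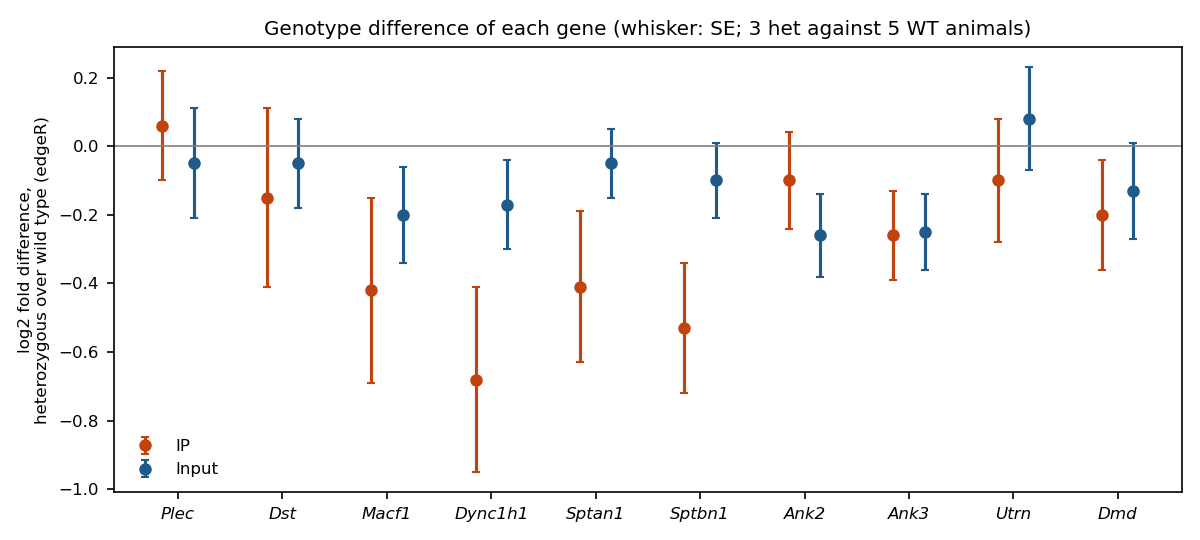
Log2 fold difference of heterozygous over wild type (y axis) for the 10 genes in IP (red) and Input (blue), from edgeR; whiskers are SE, with 3 heterozygous and 5 wild-type animals. Estimates run from -0.68 (Dync1h1) to 0.06 (Plec) in IP and from -0.26 (Ank2) to 0.08 (Utrn) in Input.

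Most of the genotype differences did not keep their direction within both forms of animal name. Among number-only animals (2 heterozygous, 3 wild type) all 10 genes were below 100% of wild type in both fractions, from 51.3% (Macf1) to 88.2% (Plec) in IP and from 73.9% (Ank2) to 98.8% (Utrn) in Input. Among BT-named animals (1 heterozygous, 2 wild type) only 3 of 10 were below 100% in IP and 4 of 10 in Input, with ranges of 78.1% to 160% and 86.9% to 130%. The share of all genes below 100% within each form of name was not counted. The 10 genes share the same libraries, so these counts are not independent and cannot be called a trait of the 10. Dync1h1 was at 78.1% and 55.3% in IP (BT-named and number-only), Sptbn1 at 96.4% and 57.4%, Macf1 at 155% and 51.3% and Dst at 160% and 67.9%, while Ank3 in Input was at 87.1% and 81.3%. With the form of name as a covariate none of the 10 passed. The sources used here do not say what the names stand for.

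Mean marker sums of glia and vessels were lower in heterozygotes. The groups were apart only for microglia and mural cells in IP and for astrocytes in Input, and the other sums overlapped. For single genes, all heterozygous libraries lay below all wild-type ones in 1.7% of genes in IP and 2.9% in Input. Oligodendrocyte sums were nearly level, with means of 824 CPM against 906 in IP and 3500 against 3570 in Input. Sums of oligodendrocyte precursors averaged 15.7 against 25.1 CPM in IP and 35.2 against 36.9 in Input. Microglial markers summed to 38.7 to 49.6 CPM in heterozygous IP against 53.2 to 74.4 in wild-type IP. Astrocyte markers summed to 521 to 562 CPM in heterozygous IP against 531 to 709 in wild-type IP, and to 776 to 849 in heterozygous Input against 902 to 1340 in wild-type Input. Endothelial markers summed to 44.8 to 54.9 CPM in heterozygous IP against 49.2 to 91.9 in wild-type IP, and mural cell markers to 23 to 37.8 against 39 to 47.8. In Input, mural cell markers summed to 46.2 to 60.9 CPM in heterozygotes against 53.1 to 67.6 in wild types. No marker passed in either fraction, and the part of these cells in the values of the 10 genes was not tested.

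Relatives and partners gave no genotype call either: 0 of the 78 listed genes tested in IP and 0 of the 75 tested in Input passed with edgeR, the 10 included. The smallest edgeR p of the dystrophin complex outside the 10 was that of the sarcoglycan gene Sgce in IP (log2 -0.43, adjusted p = 0.981) and of Sspn, the sarcospan gene, in Input (-0.91, adjusted p = 0.67, at a mean of 3.78 CPM). Among spectrins it was that of Sptbn5 in IP (0.52), and among membrane partners that of the adhesion gene Nrcam in IP (-0.21) and the sodium channel gene Scn8a in Input (-0.26). Of the 23 dynein and dynactin list genes tested, the heavy chain included, 16 were above 0 in IP and 19 in Input. Over all genes, 49.3% were below 0 in IP and 48.7% in Input. The 22 others on the list had a median of 0.06 in IP and 0.11 in Input, against -0.68 and -0.17 for the heavy chain. Dctn2, which encodes a dynactin subunit, had the smallest p among them, with 0.24 in Input (edgeR adjusted p = 0.658).

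The difference between genotypes in IP against Input joins the contrasts that chose the genes and is given without a test. It was most negative for Dync1h1 (log2 -0.43, SE 0.29), Sptbn1 (-0.41, SE 0.17) and Sptan1 (-0.29, SE 0.20) and most positive for Ank2 (0.17, SE 0.16), as heterozygotes minus wild types. For Plec it was 0.06 (SE 0.18). Without wt785 the value of Dync1h1 was -0.18. Per animal, the median over the 10 genes was 0.36, 0.59 and 0.76 in het729, het786 and hetBT13, against 0.95, 0.38, 1.02, 0.45 and 0.31 in wt734, wt736, wt785, wtBT13 and wtBT14, and the ranges overlapped.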

How the data were processed

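Gene counts of 20 libraries were deposited by the authors as whole numbers; per the submitters' processing notes they were made with HTSeq on mm10, and per the labels' protocols libraries were made by Smart-seq2, which has no molecular identifiers. The aligner, the HTSeq version, the annotation release and the strand setting are not given in the sources used here. Of 25317 gene identifiers, 24873 matched a symbol and 444 did not. Coordinates and coding lengths come from GENCODE M21 on the same build; coding length stands in for protein length.

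Counts were fitted over all genes with edgeR 4.0.16 (robust quasi-likelihood test, TMM scaling, filterByExpr with a count minimum of 10) and adjusted by Benjamini-Hochberg, with a threshold of 0.05; the fits were tested on simulated data. IP against Input used 16 libraries with the animal as a block. IP and Input of an animal came from 1 lysate, which is where the pairing comes from; the correlation of their deviations from the group means over 14797 genes was 0.0545 to 0.217. Genotype was tested within IP and within Input, with exact two-sided permutation tests of single genes in scipy 1.17.1. Alternatives were DESeq2 1.42.0, limma-voom 3.58.1, other scaling and filters, the form of animal name as a covariate, each animal left out and no block. Depth limits low genes; intervals from counts would cover counting error only, and none is given.

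The members and lists were chosen with earlier results of these data known. Named were all 10 members; of each list, the non-members with the lowest and the highest wild-type IP against Input difference at a mean of 5 CPM or more and those with the smallest genotype p; of other long genes the 3 lowest and 3 highest; and the 5 genes nearest in profile. Some genes that this rule names are not reported here.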

Additional observations from a re-analysis of the deposited data

Results flagged for a closer look

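Ank2 in wild-type Input had 1 library far from the other 4: wtBT13 was at 91.1 CPM, against 126 to 139 CPM in the others. Of 30 groups examined in this way this was the only one, and chance flags about 1 in 20. Without this animal the heterozygous minus wild-type log2 estimate of Ank2 in Input was -0.37, against -0.26 with it.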

How the results depend on the processing

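None of the 10 genes passed in the genotype comparisons under any of 14 alternatives in IP or 15 in Input. Over all genes, DESeq2 called 3 in IP, and edgeR with no low-count filter called 28 in Input, against 0 each; leaving out each animal gave 0 to 0 in both. Leaving out 1 animal turned the sign of small estimates. In IP, Plec ran from -0.15 to 0.26, Dst from -0.29 to 0.02, Ank2 from -0.17 to 0.00 and Utrn from -0.30 to 0.07. In Input, Plec ran from -0.14 to 0.04, Dst from -0.14 to 0.05 and Utrn from -0.03 to 0.20. Sptan1 in Input ran from -0.11 to -0.0 and kept its sign. The adjusted p of Dync1h1 in IP ran from 0.757 to 1.0 over the alternatives, that of Sptbn1 in IP from 0.724 to 1.0 and that of Ank3 in Input from 0.366 to 0.999. The median IP against Input log2 difference of the 10 was 0.53 in heterozygotes and 0.60 in wild types with no replicate block, against 0.52 and 0.57 with it, and the paired and unpaired medians of the genotype difference were both -0.13. With each animal left out these medians ran from 0.47 to 0.59, from 0.48 to 0.65 and from -0.23 to -0.00.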
